A study of Oncorhynchus mykiss with 8 samples.

Results

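The probes described here measure 6 inducible regulators of transcription and stress signalling in the liver of small and large rainbow trout. A probe was included if its name in the study's lists of liver or muscle genes, or its platform symbol, contained jun-b, dual specificity phosphatase 1, nf-kappa-b or the full name of bHLHe40, a class e basic helix-loop-helix protein. This gave 7 of 43603 probes, namely 2 for the transcription factor jun-b and 1 each for bHLHe40, the NF-kB p105 subunit, NF-kB inhibitor alpha, NF-kB inhibitor zeta and dual specificity phosphatase 1 (DUSP1). The names are matches to other species, no member was found through a platform symbol, and to which gene copies the 2 jun-b probes belong was not analysed here.

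The fish came from the domesticated Lyndon strain and were sampled at about 15 months of age. The Sept. lot and the Dec. lot are named for the month in which the crosses were made, according to the methods, although the labels give these months as hatching times. Each lot held 5 paternal half-sib families from 5 females and 1 male. By the methods, the Sept. lot was measured in early December and the Dec. lot in late February, under natural photoperiod. Lot, parents and season can thus not be told apart. The fish were fasted for 2 days before weighing. Pools of liver mRNA from 5 small fish were hybridized against pools from 5 large fish of the same lot on two-color salmonid arrays, with 2 pool pairs per lot and 2 arrays per pair on which Alexa Fluor 647 and Alexa Fluor 555 were exchanged, or 8 arrays in all. Each pool mixed fish of several families, so differences among single fish were not measured, and a lot is the offspring of 1 male sampled once. The values are log2 ratios, read here as small over large fish, without the levels behind them. The liver label could thus not be checked against marker levels. Fewer cells of a type and less RNA per cell cannot be told apart.

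Jun-b is a subunit of the AP-1 transcription factor and belongs to the immediate-early genes, which cells transcribe within a short time of a growth, cytokine or stress signal. DUSP1 is induced by the same kinds of signal and removes phosphate from MAP kinases, which ends their activity. In mammals NF-kB dimers are held in the cytoplasm by inhibitor alpha and by the p105 precursor, whose processing gives the p50 subunit, while inhibitor zeta acts in the nucleus on a subset of NF-kB target genes. bHLHe40, also called DEC1, is a repressor that binds E-box sequences and takes part in the mammalian circadian clock and in responses to low oxygen.

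In Sept. fish 6 of the 7 probes had a mean log2 ratio above 0, that is a higher signal in small fish, and bHLHe40 had one below 0. In Dec. fish 3 of the 6 probes with values on all 4 arrays were above 0 and 3 below. The jun-b, p105, bHLHe40 and DUSP1 probes were chosen by their Sept. liver ratios, which are therefore given as a description. No member is named in the study's Dec. liver lists, and DUSP1 and the 2 NF-kB inhibitors are in the liver lists of neither lot. The Dec. values and those of the inhibitors can still not be taken as independent of the choice. The inhibitors are included because of their names in the study's muscle lists, made from the same fish. DUSP1 also has its name only from the Sept. muscle list, and both jun-b probes are named in the Dec. muscle list as well. The thresholds of the study, a fold change of at least 1.2 and p at or below 0.05, were applied here with the p of limma over the 2 pool pairs of a lot, before adjustment. By these thresholds 2 probes were higher and 1 lower in small Sept. fish, where 1.52% and 1.21% of 38679 probes passed in these directions. In Dec. fish 1 probe was higher and 1 lower in small fish, where 2.09% and 2.75% of 34014 probes passed. None of the members had an adjusted p under 0.05 (limma, Benjamini-Hochberg over all probes tested in a lot), nor did any other probe. At an unadjusted p under 0.05 there were 1054 probes in Sept. and 1647 in Dec. A plain t-test was also computed here from the log2 ratios of single arrays. It is called the methods' t-test below because the methods name a t-statistic, but it does not repeat the study's own calculation. It also gave 0 probes after adjustment in both lots.

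**Figure D1:**
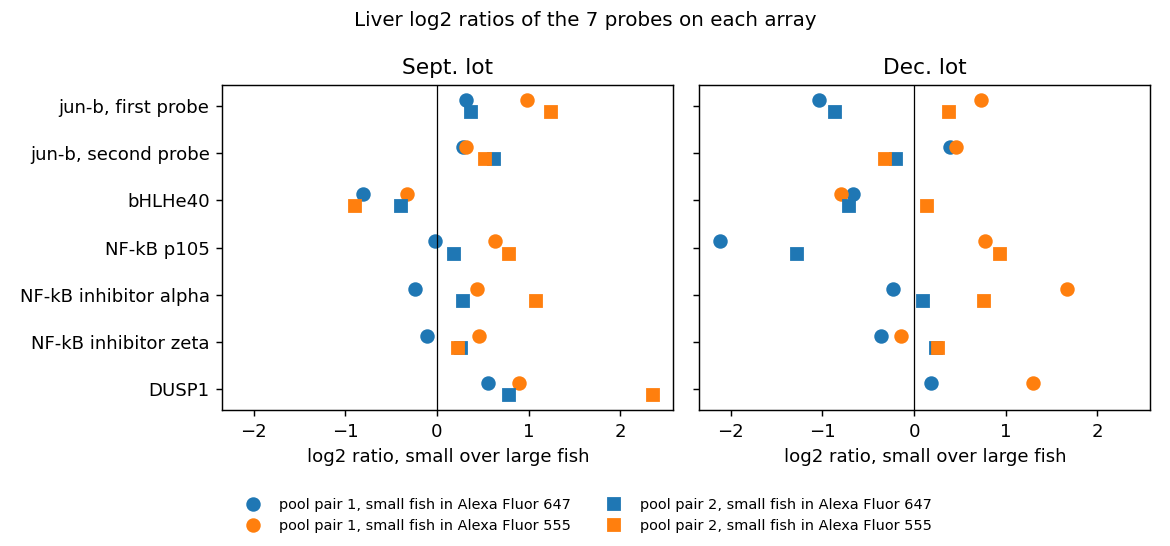
Log2 ratio of small over large fish (x axis) of the 7 probes (y axis) on every array of the Sept. lot (left) and the Dec. lot (right), where circles and squares stand for pool pairs 1 and 2 and the color for the dye of the small fish. In Dec. fish the first jun-b probe and p105 lie below 0 on both arrays whose small fish carried Alexa Fluor 647 and above 0 on both whose small fish carried Alexa Fluor 555, and DUSP1 has values for pool pair 1 only.

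The first jun-b probe (A_05_P266894) had log2 ratios of 0.31 and 0.98 in Sept. pool pair 1, with the small fish in Alexa Fluor 647 and in Alexa Fluor 555, and of 0.37 and 1.25 in Sept. pool pair 2. All 4 Sept. arrays were thus above 0, as were those of 5% of all probes tested, but the study listed this probe from these same arrays. The mean was 0.73 (limma SE 0.13, 2 pool pairs), a 1.66-fold higher signal in small fish. With only the arrays whose small fish carried Alexa Fluor 647 the Sept. value was 0.34 and did not pass the thresholds. With those in Alexa Fluor 555 it was 1.11 and passed. By the methods' t-test as computed here the Sept. mean did not pass, although the study lists the probe for Sept. liver. In the Dec. lot the same probe had -1.04 and 0.73 in pool pair 1 and -0.86 and 0.38 in pool pair 2, in the same order of dyes. In both Dec. pool pairs the 2 arrays had opposite signs, and the Dec. mean of -0.20 (SE 0.13, adjusted p = 0.994 in limma) did not pass the thresholds.

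The second jun-b probe (A_05_P410847) had 0.28 and 0.32 in Sept. pool pair 1 and 0.62 and 0.52 in Sept. pool pair 2. Its Sept. mean of 0.44 (SE 0.21) did not pass the thresholds in limma, although the study lists the probe for Sept. liver. In the Dec. lot it had 0.40 and 0.46 in pool pair 1 and -0.19 and -0.32 in pool pair 2, with a mean of 0.08 (SE 0.21, adjusted p = 0.999 in limma). The Dec. pool pairs lay on opposite sides of 0, whereas within every pool pair both arrays of this probe were close together. The probes named jun-b thus varied in different ways, the first between the arrays of a dye flip and the second between pool pairs, and over the 8 arrays their log2 ratios correlated at r = 0.36, as a description over arrays that share pools.

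bHLHe40 (A_05_P271931) was the member with a lower signal in small fish of both lots. Its log2 ratios were -0.81 and -0.32 in Sept. pool pair 1 and -0.39 and -0.90 in Sept. pool pair 2, with the small fish in Alexa Fluor 647 first, and the Sept. mean was -0.61 (SE 0.16), or 1.52-fold higher in large fish. On all 4 Sept. arrays it was below 0, as were 4.7% of all probes tested, but the study listed this probe from these same arrays. In the Dec. lot it had -0.67 and -0.79 in pool pair 1 and -0.71 and 0.14 in pool pair 2. It was thus below 0 on 3 of the 4 Dec. arrays. The Dec. mean of -0.51 (SE 0.16), 1.42-fold higher in large fish, passed the thresholds of the study but not the adjustment (adjusted p = 0.990 in limma). It did not pass by the methods' t-test or at a fold change of 1.5. With only the arrays whose small fish carried Alexa Fluor 555, neither the Dec. value (-0.32) nor the Sept. value (-0.61) passed. With only those in Alexa Fluor 647 both did, at -0.69 and -0.60. Among the 286 probes that were lower in small Sept. fish past the thresholds and had values on all 8 arrays, 42 (14.7%) were also lower past the thresholds in Dec. fish. The Dec. value was -0.28 without Dec. pool pair 1 and no longer passed, nor did it pass with the Dec. lot fitted alone or with the arrays scaled to equal spread. The Sept. value did not pass without either Sept. pool pair.

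**Figure D2:**
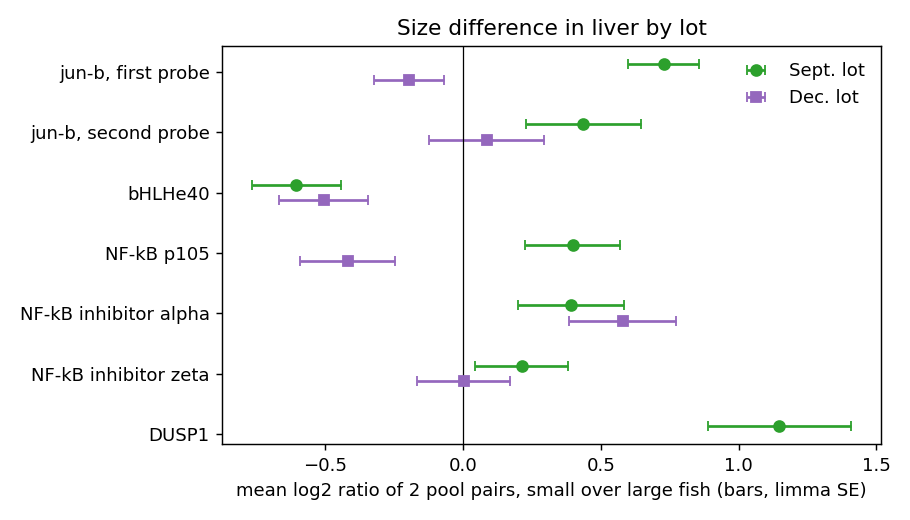
Mean log2 ratio of small over large fish over the 2 pool pairs of a lot (x axis, bars give the SE of limma) for the 7 probes, with the Sept. lot as circles above the Dec. lot as squares. bHLHe40 lies below 0 and NF-kB inhibitor alpha above 0 in both lots, and the first jun-b probe and p105 change sides between the lots.

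The p105 subunit of NF-kB (A_05_P254299) had -0.02 and 0.64 in Sept. pool pair 1 and 0.19 and 0.78 in Sept. pool pair 2. Its Sept. mean of 0.40 (SE 0.17) did not pass the thresholds in limma, although the study lists the probe for Sept. liver. In the Dec. lot it had -2.12 and 0.78 in pool pair 1 and -1.28 and 0.94 in pool pair 2. Its Dec. arrays gave the lowest ratios of any member where the small fish were in Alexa Fluor 647 and ratios above 0 where they were in Alexa Fluor 555. The Dec. mean was -0.42 (SE 0.17, adjusted p = 0.990 in limma) and did not pass the thresholds, but it averages values of -1.70 with the small fish in Alexa Fluor 647 and 0.86 with the small fish in Alexa Fluor 555.

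NF-kB inhibitor alpha (A_05_P422557), whose gene is itself induced by NF-kB in mammals, was the member with the highest mean in Dec. fish. It had -0.24 and 0.44 in Sept. pool pair 1 and 0.28 and 1.08 in Sept. pool pair 2, with a mean of 0.39 (SE 0.19, adjusted p = 1.00 in limma) that did not pass the thresholds. In the Dec. lot it had -0.23 and 1.67 in pool pair 1 and 0.10 and 0.77 in pool pair 2. The Dec. mean of 0.58 (SE 0.19), a 1.49-fold higher signal in small fish, passed the thresholds but not the adjustment (adjusted p = 0.990 in limma), and 1.17% of the probes tested in Dec. fish had a higher mean. With the small fish in Alexa Fluor 555 the Dec. value was 1.22, whereas with the small fish in Alexa Fluor 647 it was -0.06, so its direction rested on 1 dye orientation. Without either Dec. pool pair it kept its direction, at 0.43 and 0.72, but did not pass.

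NF-kB inhibitor zeta (A_05_P301692) had the smallest differences among the members. Its log2 ratios were -0.11 and 0.46 in Sept. pool pair 1 and 0.27 and 0.23 in Sept. pool pair 2, and -0.36 and -0.14 in Dec. pool pair 1 and 0.24 and 0.26 in Dec. pool pair 2. The means were 0.21 in Sept. fish (SE 0.17, adjusted p = 1.00) and 0.00 in Dec. fish (SE 0.17, adjusted p = 1.00), and neither passed the thresholds in limma.

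DUSP1 (A_05_P383357) had the highest Sept. mean of the members, with 0.55 and 0.90 in pool pair 1 and 0.78 and 2.36 in pool pair 2. The Sept. mean of 1.15 (SE 0.26), a 2.22-fold higher signal in small fish, was exceeded by 0.181% of the 38679 probes tested. As the probe was chosen with earlier results of these data known, this rank is a description. The Sept. mean passed the thresholds in limma but not by the methods' t-test. Without Sept. pool pair 2, whose array with the small fish in Alexa Fluor 555 gave the highest value of any member, the mean was 0.73 and did not pass the thresholds. In the Dec. lot DUSP1 had 0.19 and 1.30 in pool pair 1 and no value on either array of pool pair 2, so it was not tested there. All 6 of its values were above 0.

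The difference between the lots was fitted on the 6 members with values on all 8 arrays. For all but the NF-kB inhibitors it contains the Sept. values that put them in the study's liver lists. The first jun-b probe had a Sept. minus Dec. difference of 0.92 (SE 0.18) and p105 one of 0.82 (SE 0.24), both past the thresholds, as were 1.53% of 33291 probes in this direction, and neither with an adjusted p under 0.05 (both 1.00 in limma). The difference of the first jun-b probe was 1.29 with only the arrays whose small fish carried Alexa Fluor 647 and 0.55, no longer past the thresholds, with only those in Alexa Fluor 555, and it did not pass by the methods' t-test. The difference of p105 was 1.78 with the small fish in Alexa Fluor 647 and -0.15 in Alexa Fluor 555. It did not pass with the dye term, by the t-test, or without Sept. pool pair 1 (0.91), Sept. pool pair 2 (0.73) or Dec. pool pair 1 (0.57). For NF-kB inhibitor alpha the difference was -0.19 (SE 0.27) and for inhibitor zeta 0.21 (SE 0.24), with adjusted p = 1.00 for both. For bHLHe40 it was -0.10 (SE 0.23), with means of -0.61 in Sept. fish and -0.51 in Dec. fish.

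Several members differed between the 2 arrays on which the same pools were hybridized with the dyes exchanged. The first jun-b probe was lower with the small fish in Alexa Fluor 647 than in Alexa Fluor 555 in all 4 pool pairs, with differences of -0.67 and -0.87 on the log2 scale in the Sept. pairs and -1.77 and -1.25 in the Dec. pairs. The same held for p105, with differences of -0.66 and -0.59 in the Sept. pairs and -2.90 and -2.21 in the Dec. pairs. NF-kB inhibitor alpha followed, with -0.67 and -0.80 in the Sept. pairs and -1.90 and -0.66 in the Dec. pairs, and DUSP1 had -0.34, -1.57 and -1.11 in the 3 pairs that measured it. Of the 6 members with values on all arrays 3 were lower in all 4 pairs, as were 16.9% of the 33291 probes with such values. The second jun-b probe had differences between -0.06 and 0.13, and neither bHLHe40 nor inhibitor zeta kept 1 sign over the pairs.

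**Figure D3:**
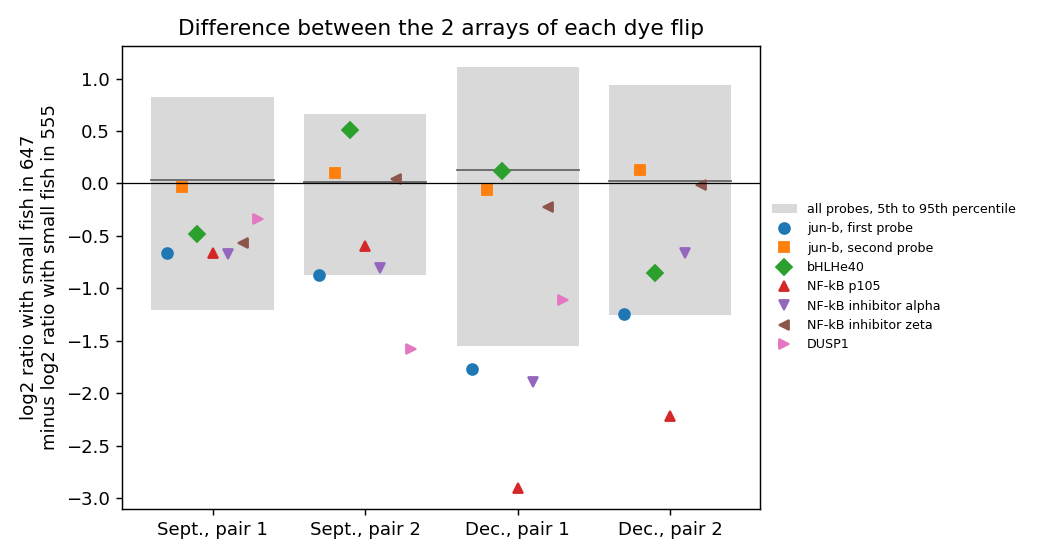
Log2 ratio on the array with the small fish in Alexa Fluor 647 minus that on the array with the small fish in Alexa Fluor 555 (y axis) for each pool pair (x axis), with a symbol for each member and grey bars for the 5th to 95th percentile of all probes with values on all arrays (grey line, median). p105 lies below the grey bar in both Dec. pairs, at -2.90 and -2.21, and the first jun-b probe, p105 and NF-kB inhibitor alpha are below 0 in all 4 pairs.

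The dyes were also fitted as a term over all 8 arrays, with pool pairs as random blocks, and this term, the distance of either orientation from their common mean, was -0.57 for the first jun-b probe (SE 0.10, adjusted p = 0.0403 in limma), -0.80 for p105 (SE 0.20, adjusted p = 0.0695) and -0.50 for NF-kB inhibitor alpha (SE 0.14, adjusted p = 0.0854). Of all probes 2.4% had an adjusted p under 0.05 in this direction. In a fit to the differences within the 4 pool pairs, added after the values were seen, the adjusted p was 0.0334 for the first jun-b probe, 0.0644 for p105 and 0.0582 for inhibitor alpha. Of 33291 probes, 2055 had an adjusted p under 0.05 in this fit, counting both directions. The dye difference of p105 was larger in size in the Dec. lot, with means of -0.63 in Sept. and -2.56 in Dec., but this difference of 1.93 between lots (SE 0.38) had an adjusted p of 0.920 in limma. Over all probes the SD of the dye difference was 0.64 and 0.54 in the Sept. pairs and 0.84 and 0.73 in the Dec. pairs. The dye term and the dye differences rest on the sign of the ratios as read here. With the sign turned, as in the alternative given below, the same term is the size ratio averaged over both lots. That alternative gave size ratios of -0.38 in Sept. and -0.75 in Dec. for the first jun-b probe, and -0.31 and -1.28 for p105. A dye effect was thus not separated from a size effect by this term. The part of the dyes in the size ratios of these members was not tested beyond the values of each orientation given above.

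Among the members, the first jun-b probe and p105 had the most similar pattern, with r = 0.93 over the 8 arrays and r = 0.84 after the mean of each dye orientation had been subtracted. For jun-b and NF-kB inhibitor alpha these values were 0.64 and 0.10. Over all 1400 other named probes with values on all 8 arrays, the 5 most like the first jun-b probe were chaperonin containing subunit 6a, a part of the cytosolic folding complex (r = 0.96), serine threonine-protein kinase 17a (r = 0.96), coagulation factor vii, a liver-made clotting protease (r = 0.96), fadsd6, a fatty acid desaturase (r = 0.96), and erythrocyte membrane protein band -like 2 (r = 0.95). The 5 most like DUSP1, over its 6 arrays and 1423 probes, were isoform cra_a (r = 0.97), voltage-dependent anion-selective channel protein 1 (r = 0.96), polyadenylate-binding protein-interacting protein 2 (r = 0.96), protein cappuccino homolog (r = 0.95) and grancalcin (r = 0.94). All these correlations describe arrays that share pools and dyes.

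Other inducible transcription regulators were represented by 15 probes, among them C/EBP beta and delta, jun-d, Kruppel-like factor 2 and the Id proteins, which block helix-loop-helix factors. Of these, 1 of 15 tested in Sept. passed the thresholds, DNA-binding protein inhibitor ID-2, with a log2 ratio of 0.48 (SE 0.14). Of 14 tested in Dec. fish 1 passed, DNA-binding protein inhibitor ID-1, at 0.60 (SE 0.13), which was 0.03 (SE 0.13) in Sept. fish. Both were higher in small fish, and the list had a median of 0.07 in Sept. and 0.10 in Dec., beside 0.00 and 0.01 for all probes tested.

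The list of stress and growth signalling regulators held 17 probes. In Sept. fish 2 of 17 passed, both higher in small fish, namely GADD45 beta, an activator of stress kinases, at 0.63 (SE 0.18) and the kinase pim-1 at 0.49 (SE 0.15). Their Dec. values were 0.03 and -0.21, and neither passed. A further GADD45 beta probe had 0.41 in Sept. and -0.05 in Dec. (SE 0.18 each) and passed in neither lot. In Dec. fish 1 of 2 probes for sestrin 1, a p53 target that restrains growth signalling, was higher in small fish at 0.54 (SE 0.18) and had 0.02 in Sept., whereas the other had -0.11 in Dec. and 0.49 in Sept. (SE 0.19 each) and passed in neither lot. Also in Dec. fish, transducer of 1 at -0.80 (SE 0.17) and mapk mak mrk overlapping kinase at -0.41 (SE 0.12) were lower. Their Sept. values were 0.40 (SE 0.17) and 0.05 (SE 0.12), and neither passed. The MAP kinases p38a and p38b, which DUSP1 dephosphorylates in mammals, had 0.02 and -0.08 in Sept. fish and -0.02 and -0.15 in Dec. fish, and none of these 4 values passed. On all 4 Sept. arrays 7 of the 17 probes were above 0, but 8 of the 17 were named in the study's liver lists, which were made from these arrays, and of the 9 others 1 was above 0 on all 4. The list median was 0.05 in Sept. and -0.02 in Dec.

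Of the Toll, cytokine and NF-kB pathway list, 17 of 19 probes were tested in Sept. fish and 16 in Dec. fish. In Sept. fish toll-like receptor 5 membrane form, which senses flagellin upstream of NF-kB, was higher in small fish at 0.88 (SE 0.17), as was protein nlrc3 at 0.53 (SE 0.18). Toll-interacting protein, an inhibitor of Toll signalling, was lower in small Sept. fish at -0.52 (SE 0.13). No probe of this list passed in Dec. fish. The cytokine tnf-alpha-2 had 0.12 in Sept. and -0.06 in Dec. fish, and the medians of the list were 0.01 and 0.06. An interleukin-8 like probe had the highest Sept. mean of the list, 0.98 (SE 0.45), with 1.80 in pool pair 1 and 0.16 in pool pair 2. It did not pass and was not tested in Dec. fish. C-c motif chemokine 13 had -0.51 in Sept. and -0.53 in Dec. (SE 0.25 each) and passed in neither lot. Of the probes past the thresholds in these 3 lists, all but mapk mak mrk overlapping kinase were named in the study's liver lists, so their direction is no independent evidence. No probe for heat shock proteins or heme oxygenase passed in either lot among 12 tested, and the largest ratios were those of 2 heme oxygenase probes in Sept. fish, at 0.68 (SE 0.37) and 0.57 (SE 0.43).

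**Figure D4:**
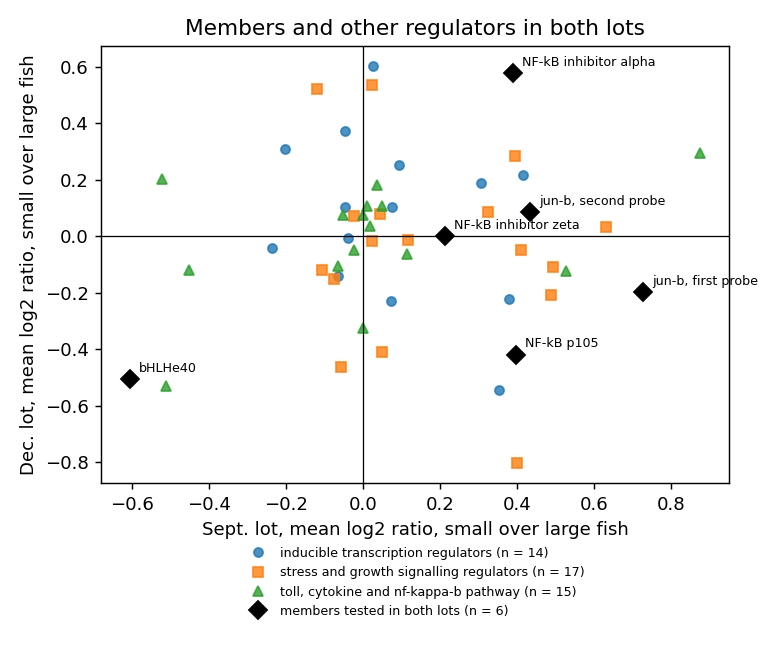
Mean log2 ratio of small over large fish in the Sept. lot (x axis) and the Dec. lot (y axis) for the 6 members tested in both lots (black diamonds) and 46 probes of the 3 lists of other regulators (colored symbols). bHLHe40 is at -0.61 and -0.51 and NF-kB inhibitor alpha at 0.39 and 0.58, and toll-like receptor 5 at 0.88 and 0.30.

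Markers of other cell types were measured on the same arrays. Of 13 red blood cell probes, 9 of them named in the study's liver lists, 6 were lower in small Sept. fish past the thresholds and 10 were higher in small Dec. fish, and the median of the list ranged from -0.58 to -0.09 over the Sept. arrays and from 0.40 to 1.01 over the Dec. arrays, above 0 in both dye orientations. Of 6 white blood cell probes, all of them named in the study's liver lists, 5 were above 0 on all 4 Sept. arrays and 1 on all 4 Dec. arrays, with medians of 0.31 in Sept. and -0.11 in Dec. B-cell receptor CD22 passed in Sept. at 0.46 (SE 0.16) and an Ig kappa chain probe in Dec. at 0.61 (SE 0.18). Of 11 hepatocyte probes 0 passed in Sept. and 1 in Dec., a probe for apolipoprotein B at -0.51 (SE 0.18). The other large ratio was that of a serum albumin probe, -0.51 (SE 0.23) in Dec. A further apolipoprotein B probe had 0.04 (SE 0.13) in Dec. The median of the hepatocyte list was -0.07 in Sept. and -0.29 in Dec. Of 14 skeletal muscle probes tested, slow skeletal muscle troponin I was higher in Sept. at 1.15 (SE 0.42) and had -0.09 in Dec. Fast myotomal muscle troponin-t-1 was lower in both lots, at -0.83 and -0.39 (SE 0.12 each). Both of these troponin probes are named in the study's liver lists, and no other muscle probe passed in either lot. A further slow troponin probe had -0.21 in Sept. and -0.24 in Dec. (SE 0.22 each) and passed in neither lot. The medians of the muscle list were -0.04 in Sept. and 0.03 in Dec. The part of these cells in the ratios of jun-b, bHLHe40, DUSP1 and the NF-kB genes was not tested.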

How the data were processed

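Liver mRNA pools were measured on 8 two-color arrays. The authors quantified spots with GenePix Pro, excluded spots rejected by eye and points with a low ratio of channel signals, and applied lowess normalization in GeneSpring. They deposited log2 ratios, which were used unchanged after 60 control spots had been left out. The arrays held values for 36754 to 41918 probes. The number of arrays limits the precision, and single-channel signals were not used here.

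All ratios were taken as small fish over large fish. The basis is that, without any sign turned, the mean of 4 arrays lay on the listed side for 725 of 725 liver entries of the study's lists, against 326 with the sign turned wherever the small fish carried Alexa Fluor 555. Arrays of 1 orientation correlated at 0.05 to 0.36 over probes, arrays of opposite orientation from other pools at -0.27 to -0.01, and those of a dye flip at -0.14 to 0.06. The study's lists were made from these same ratios. The match of 725 entries therefore shows the sign as the study read it and is no separate check of the direction. The paper also reports qPCR of selected liver genes in Sept. fish, which it says bore out its array results. None of the members was among these genes. The turned version is an alternative.

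Both arrays of a dye flip were averaged, and the pool pairs, 2 per lot, were fitted in limma 3.58.1 (R 4.3.3) with a mean per lot and a shared spread. A pair with a missing array was left empty. A lot was tested on probes with values on all of its 4 arrays and the lot difference on probes with values on all 8, and p-values were adjusted by Benjamini-Hochberg over all of these. The pools of a pair came from different fish than those of the other pair, but of the same families, so the spread covers 2 pools per size.

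Of all probes 1494 have a name, 398 from the study's liver lists, 940 from its muscle lists and 221 with a platform symbol. Those lists hold only probes that the study called. The members and the gene lists were chosen with earlier results of these data known. All members were described, together with each list probe past the thresholds (or the 2 with the largest ratios) and the 5 named probes most like jun-b and DUSP1. p38a, p38b and tnf-alpha-2 were added after their values were seen. So were the interleukin-8 like and c-c motif chemokine 13 probes, and the further probes for GADD45 beta, apolipoprotein B and slow troponin. Alternatives covered the sign, a dye term, single dye orientations, lots fitted alone, centering, scaling, the methods' t-test, robust estimation, a fold change of 1.5, complete probes, a replicate block and leaving out each pool pair. The code was tested on simulated data. Python 3.11.15 with pandas 2.3.3 and matplotlib 3.10.9 was also used.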

Additional observations from a re-analysis of the deposited data

Results flagged for a closer look

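Among 13 sets of 4 arrays (each member in each lot in which it had all values), 1 held an array far from the others. bHLHe40 had a log2 ratio of 0.14 on the array of Dec. pool pair 2 with the small fish in Alexa Fluor 555, and -0.71 to -0.67 with the small fish in Alexa Fluor 647 and -0.79 on the other array with the small fish in Alexa Fluor 555. Chance alone gives such an array in about 1 of 20 sets of 4.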

How the results depend on the processing

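Of 296 values of single members under the alternatives, 222 kept their direction and their side of the thresholds. With the sign turned wherever the small fish carried Alexa Fluor 555, the Sept. log2 ratios were -0.38 for the first jun-b probe, 0.0050 for bHLHe40, -0.31 for p105, -0.37 for inhibitor alpha, -0.13 for inhibitor zeta and -0.48 for DUSP1, the Dec. ratios -0.64 for inhibitor alpha, -0.061 for inhibitor zeta, -0.75 for the first jun-b probe and -1.28 for p105 (both now past the thresholds) and -0.18 for bHLHe40 (no longer past them), and the Sept. minus Dec. differences -0.0014 for the second jun-b probe, 0.19 for bHLHe40, 0.27 for inhibitor alpha, -0.072 for inhibitor zeta and 0.37 for the first jun-b probe (no longer past). Only arrays whose small fish carried Alexa Fluor 647 gave -0.062 in Dec. for inhibitor alpha and -0.059 for inhibitor zeta, and lot differences of 0.088 for bHLHe40 and 0.085 for inhibitor alpha. Only those with Alexa Fluor 555 gave Dec. ratios of 0.56 for the first jun-b probe and 0.86 for p105, and a lot difference of -0.15 for p105. Centering gave -0.026 in Dec. for inhibitor zeta, and scaling a lot difference of 0.012 for inhibitor alpha. With a pool pair left out, the Dec. ratio was -0.26 to 0.43 for the second jun-b probe (below 0 without Dec. pair 1) and -0.25 to 0.25 for inhibitor zeta (below 0 without Dec. pair 2), and the lot difference was -0.32 to 0.13 for bHLHe40 (above 0 without Dec. pair 2), -0.48 to 0.10 for inhibitor alpha (above 0 without Sept. pair 1) and -0.042 to 0.46 for inhibitor zeta (below 0 without Dec. pair 1).

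Members past the thresholds numbered 3 in Sept., 2 in Dec. and 2 for the lot difference. In Sept. it was 1 with the sign turned and 5 with the lot fitted alone, and 1 to 5 when a pool pair was left out. In Dec. it was 1 with the lot fitted alone, 0 with scaling, the methods' t-test or a fold change of 1.5, and 0 to 2 when a pool pair was left out. For the lot difference it was 1 with the sign turned or the dye term, 0 with only Alexa Fluor 555 or the t-test, and 1 to 2 when a pool pair was left out. Over all probes the 1054 in Sept. became 3664 with the sign turned, 1611 fitted alone, 1757 and 2036 with only Alexa Fluor 647 and only 555, 648 with the t-test, 569 at a fold change of 1.5, and 1212 to 1832 without a pool pair. The 1647 in Dec. became 6809, 4272 and 3235 with the sign turned and each orientation alone, 936 with scaling, 709 with the t-test, 684 at a fold change of 1.5, and 1182 to 3671 without a pool pair. For the lot difference 580 to 2677 probes passed without a pool pair, against 917. The cause was not tested. A pool pair alone in its lot is taken to have the spread of the other lot.

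The replicate block on the pool pair number gave 988, 2004 and 1284 probes in Sept., Dec. and for the lot difference. Deviations of same-numbered pairs correlated at 0.03. By the methods, the largest fish of each family were set against the second smallest, and the second largest against the smallest, in both lots. Whether the pair numbers follow these size ranks was not worked out here. No alternative gave a member an adjusted p under 0.05, with a smallest value of 0.495 in Sept. and 0.143 in Dec., both over all the alternatives that tested them. A lot has only 2 pool pairs, single-channel signals were not used, and DUSP1 rests on 1 pool pair in Dec.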
